A study of Mus musculus with 8 samples.

Results

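The genes described here serve the stress response and the folding, export and disposal machinery of the endoplasmic reticulum (ER). They form a list of 40 genes, chosen by symbol, in 4 roles: 9 sensors and factors of the unfolded protein response (UPR), 16 ER chaperones and folding enzymes, 9 genes of the translocon, its associated proteins and the signal peptidase, and 6 genes of ER-associated degradation (ERAD). Every probe annotated to a member was read, and a probe was tested where 4 or more of the 8 arrays detected it at a p under 0.01. The members had 71 named probes, of which 43 passed. Of the 40 genes, 39 had a named probe among 19057 named genes on the array, and 28 passed this filter among 8252 genes that did.

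Both groups were dendritic cells of CCL17E/+ mice, which carry 1 allele of Ccl17 with EGFP, on a C57BL/6 background and aged 2 to 5 months. All mice received 100 µg of LPS, the bacterial endotoxin, 15 h before their organs were taken, and no untreated group was used here. From both organs NK1.1- CD8alpha- CD11c+ CD11b+ cells were sorted. The lymph node (LN) group, from mesenteric and peripheral nodes, kept EGFP-positive cells and the spleen group kept EGFP-negative cells, with 4 Illumina BeadChip arrays each. The contrast sets CCL17-expressing LN cells against CCL17-negative spleen cells under 1 stimulus. Since organ and CCL17 status change together, their parts in any value cannot be told apart. The sort ran in parallel from the same mice, but how many mice entered each sample is not given in the sources used here. The p-values therefore measure the spread between these samples, which may be partly technical. In bulk RNA, fewer cells of a type and less RNA per cell cannot be told apart either.

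Proteins bound for the surface or for secretion enter the ER through the Sec61 channel, fold there with the help of chaperones and disulfide isomerases, and are returned to the cytosol for destruction when folding fails. When unfolded proteins build up, the sensors IRE1 (gene Ern1), PERK (Eif2ak3) and ATF6 start the UPR. IRE1 splices Xbp1 mRNA into a form that encodes an active transcription factor, PERK slows translation and favours ATF4, and ATF6 is cut to release another factor. Some subsets of dendritic cells are known for constant IRE1 and XBP1 activity, and gene-level probes do not separate spliced from unspliced Xbp1.

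The arrays had mean intensities of 239 to 521 and 13743 to 14985 detected probes. The mean correlation of an array with its own group was 0.974 to 0.979 in LN and 0.947 to 0.956 for spleen replicates 1 to 3. Spleen replicate 4 had 0.895 and the lowest mean intensity. Ccl17 was 77.2-fold higher in LN, which checks the labels, since the cells were sorted on its reporter. Of the 11 dendritic cell markers listed, each was detected on at least 1 array. Detection of Itgax (CD11c) was reached on 3 LN and 3 spleen arrays, and of Itgam (CD11b) on 1 LN and 0 spleen arrays, so the sort on CD11b has no check at the transcript level. The markers of other cells differed too: summed levels of 10 erythroid markers ran from 1670 to 2278 in LN and from 5172 to 39750 in spleen, and those of 12 plasmacytoid dendritic cell markers from 7802 to 10370 and from 15820 to 30420. Sums were also higher in spleen, without overlap, for macrophage markers (1799 to 2241 in LN, 4068 to 5573 in spleen). The same held for neutrophil and monocyte markers (300.6 to 318.6, 403.3 to 745.6) and B cell markers (414.3 to 684.5, 703 to 1028). Only 1 of 11 neutrophil and monocyte markers and 3 of 9 B cell markers were detected on at least 4 arrays. Since 7 and 4 of them were detected on 0 arrays, these sums hold many probes at background. The sums of T cell, NK cell and type 1 conventional dendritic cell markers overlapped, but single markers in these lists were called with limma. Higher in LN were 1 of 2 tested T cell markers and 1 of 4 type 1 conventional dendritic cell markers. Of 4 tested NK cell markers, 2 were called lower in LN and all 4 had folds below 0. The share called among all genes was 15.6%. Tested markers within the erythroid, plasmacytoid and macrophage lists had folds of both signs. The part of other cells in the results was not tested.

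Few of the ER genes differed between the groups by more than the spread of the arrays. With limma, 1 of the 28 tested members was called at an adjusted p under 0.05, which is 3.57%, against 15.6% of all genes tested. That gene was Sec61b, higher in LN. No member was called lower in LN, against 7.59% of all genes, and higher calls made up 7.99% of all genes. At an unadjusted p under 0.05 there were 3 members, or 10.7%, against 26.9% of all genes.

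The median log2 fold of LN over spleen was 0.16 over the 28 members and 0.03 over all genes, and the median absolute fold was 0.22 against 0.32. Folds ran from -1.22 for Atf3 to 0.84 for Calr, with 17 above 0 and 11 below. The 95% interval of the log2 fold lay between -1 and 1 for 14 of 28 members, or 50%, against 54.7% of all genes. For the other members a change of 1 log2 unit in at least 1 direction lies within the interval. In 3 of the 28 members, or 10.7%, the values of the groups did not overlap (Xbp1 and Sec61b above, Atf3 below), against 22.2% of all genes, of which 12.2% had LN above and 9.94% LN below.

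**Figure D1:**
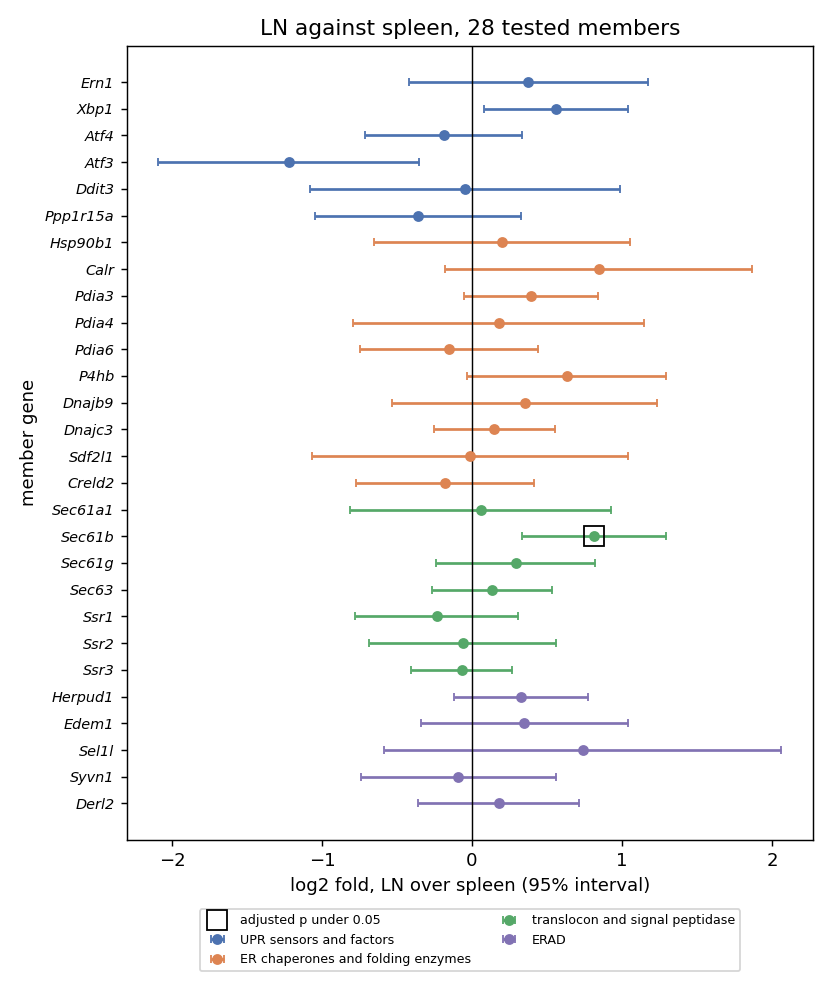
Log2 fold of LN over spleen (x axis) for the 28 tested members (y axis, coloured by role), with 95% limma intervals as bars and 4 arrays per group. The square marks Sec61b, the 1 member with an adjusted p under 0.05, and folds run from -1.22 for Atf3 to 0.84 for Calr.

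The UPR sensors and factors held the member with the largest fold but no call. Of 9 genes, 6 were tested, 0 were higher and 0 lower with limma, and 2 had an unadjusted p under 0.05. Their median log2 fold was -0.12. Atf6 and Eif2ak3, which encode the sensors ATF6 and PERK, were detected on at most 3 and 1 arrays per probe, and Trib3, a pseudokinase induced downstream of ATF4, on at most 2, so none of these 3 was tested.

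Atf3, a stress-induced repressor of inflammatory genes, read 8.78, 9.25, 9.01 and 8.82 on LN replicates 1 to 4 and 9.83, 10.18, 9.28 and 11.45 on spleen replicates 1 to 4, in log2 intensity. Every LN array lay below every spleen array, and spleen replicate 4 was the highest of all. The log2 fold was -1.22 ± 0.39 (SE, n = 4 per group; limma, 95% interval -2.09 to -0.35, adjusted p 0.0627), a 2.33-fold difference that missed the threshold. With the replicate number as a block the adjusted p was 0.0324, and 2 members were then called, or 7.14%, against 21.1% of all genes. The size of this gene's difference rested in part on spleen replicate 4: without it the log2 fold was -0.81 (limma, adjusted p 0.0213).

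Xbp1, the UPR's spliced transcription factor, read 11.83, 11.91, 11.70 and 11.88 in LN and 11.32, 11.59, 11.54 and 10.64 in spleen. The LN arrays lay above the spleen arrays, with spleen replicate 4 lowest. Its log2 fold was 0.56 ± 0.22 (limma, adjusted p 0.117), and 0.35 without spleen replicate 4 (adjusted p 0.0697). Xbp1 is also a plasma cell gene. Of 17 plasma cell markers listed, 11 had a named probe, and the immunoglobulin genes Ighm, Igkc and Iglc1 had none. Of the 11, 5 were detected on 0 arrays (Sdc1, Tnfrsf17, Derl3, Fkbp11 and Eaf2) and 4 on at least 4 arrays. Prdm1 was detected on 0 LN and 3 spleen arrays and was not tested. Jchain, the joining chain of secreted antibodies, was detected on 1 of 8 arrays, and Mzb1, a plasma cell ER protein, had a log2 fold of -0.38 (limma, adjusted p 0.727). The other 3 tested markers had log2 folds above 0: Pou2af1 (0.27), Edem2 (0.06) and Xbp1 itself. Summed levels of the 11 markers ran from 6743 to 7927 in LN and from 5900 to 7083 in spleen, with Xbp1 itself and Edem2 included. Xbp1 and Edem2 averaged 11.83 and 11.73 in LN, while the highest group mean of any other marker was 6.35 (Mzb1 in spleen). Most of each sum thus came from Xbp1 and Edem2, so the sums cannot separate Xbp1 from plasma cells.

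Ern1, the gene of the sensor IRE1, read 7.94, 8.35, 8.08 and 7.81 in LN and 8.40, 7.93, 7.80 and 6.55 in spleen. Here the groups overlapped, and only spleen replicate 4 lay well below the rest. The log2 fold was 0.38 ± 0.36 (limma, adjusted p 0.577). Atf4, the factor that PERK signalling favours, had a log2 fold of -0.19 ± 0.24 (limma, adjusted p 0.699).

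Ddit3 (CHOP, a factor of stress-induced death) and Ppp1r15a (GADD34, which restarts translation after PERK has slowed it) are shown array by array because of 1 array, a choice made after their values were seen. Ddit3 read 8.48, 8.16, 9.15 and 9.24 in LN and 8.09, 8.20, 8.65 and 10.28 in spleen. Ppp1r15a read 12.50, 12.47, 12.59 and 12.61 in LN and 12.62, 12.47, 12.51 and 14.00 in spleen. In both, spleen replicate 4 was the highest array and the other spleen arrays overlapped with the LN arrays. The log2 folds were -0.05 ± 0.47 for Ddit3 (limma, adjusted p 0.970) and -0.36 ± 0.31 for Ppp1r15a (adjusted p 0.528).

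Of 16 ER chaperones and folding enzymes, 10 were tested and none was called in either direction with limma, nor did any have an unadjusted p under 0.05. Their log2 folds ran from -0.18 to 0.84, with a median of 0.19. Dnajb11, an ER cochaperone, had no named probe. The single probes of Hspa5 (BiP, the main ER chaperone of the HSP70 family), Canx (calnexin, the membrane lectin chaperone), Hyou1 and Manf, and both probes of Ero1a (the disulfide oxidase also named Ero1l), were detected on 0 of 8 arrays. Those 5 genes have no measured level here, and nothing can be read about them from these probes.

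Calr, the soluble lectin chaperone calreticulin, had the highest positive log2 fold among the tested members, 0.84 ± 0.46, which was not called (limma, 95% interval -0.18 to 1.87, adjusted p 0.283). It read 9.67, 10.44, 9.26 and 9.35 in LN and 8.13, 7.82, 9.59 and 9.79 in spleen. The low spleen values were those of replicates 1 and 2, while spleen replicates 3 and 4 lay above LN replicates 3 and 4. Replicates 1 and 2 of both groups shared the first BeadChip (slide 1) and replicates 3 and 4 the second (slide 2), so the fold had opposite signs on the slides: 2.14 within slide 1 (limma, adjusted p 0.000634) and -0.37 within slide 2 (adjusted p 0.647). The interaction of group and slide was -2.47 ± 0.43 with an unadjusted limma p of 0.000292 and an adjusted p of 0.969 over all genes, so it was not called.

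P4hb, a protein disulfide isomerase, read 11.61, 11.80, 12.09 and 12.11 in LN and 10.96, 10.81, 11.06 and 12.25 in spleen. Spleen replicates 1 to 3 lay below every LN array, and spleen replicate 4 lay above every one. Its log2 fold was 0.63 ± 0.30 (limma, adjusted p 0.210), and it was 0.96 ± 0.15 without spleen replicate 4 (adjusted p 0.000992). Pdia3, the isomerase that works with calreticulin and calnexin, read 11.95, 11.81, 11.74 and 12.03 in LN and 11.30, 11.41, 12.04 and 11.20 in spleen. Its groups overlapped through spleen replicate 3, and its log2 fold of 0.40 ± 0.20 was not called (limma, adjusted p 0.244).

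The other 7 tested chaperones had smaller folds, from -0.18 for Creld2 to 0.35 for Dnajb9, and adjusted limma p-values of at least 0.657. Among them were Hsp90b1, the ER member of the HSP90 family (log2 fold 0.20), Pdia4 (0.18) and the cochaperones Dnajc3 (0.15) and Sdf2l1 (-0.01). Sdf2l1, which works with BiP, resembled Calr in its slides, with mean log2 folds of 0.70 on slide 1 and -0.73 on slide 2. Pdia4 was the 1 member of 28 (3.57%) called between slides, 1.18 ± 0.23 higher in log2 intensity on slide 2 (limma, adjusted p 0.0443), against 1.93% of all genes.

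Several of these genes are textbook targets of the ER stress response element, ERSE, a pair of boxes bound by NF-Y and by ATF6 or XBP1. Promoter windows from 250 bases before to 50 bases after the annotated start were taken from RefSeq (GRCm38.p6) and were found for 34 of the 40 members. The motifs searched on both strands were ERSE (CCAAT, any 9 bases, CCACG), ERSE-II (ATTGG, any 1 base, CCACG), UPRE (TGACGTGG), an XBP1 element, and CARE (TTGCATCA), an ATF4 element. ERSE and ERSE-II share the box CCACG, whose complement also lies within UPRE. ERSE was present in the windows of 8 of 34 members (23.5%), against 0.137% of 27025 genes, and ERSE-II in 2 (5.88%) against 0.0444%. Since the list was chosen for ER genes and holds textbook targets of ERSE, these higher shares follow from the choice and are no separate result. UPRE was found in 0 members against 0.714% of genes, and CARE in 2, Atf3 and Herpud1 (5.88%), against 1.03%.

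The matches are given for the 7 of 28 tested members that hold ERSE or ERSE-II. Motif letters are in capitals and the spacer in lower case, 5′ to 3′ on the genome strand given.
Hsp90b1, chr10:86705533-86705551, plus strand: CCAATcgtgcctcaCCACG
Hsp90b1, chr10:86705638-86705656, minus strand: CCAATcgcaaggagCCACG
Calr, chr8:84847075-84847093, plus strand: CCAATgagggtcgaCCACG
Pdia6, chr12:17266491-17266509, plus strand: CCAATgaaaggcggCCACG
Dnajc3, chr14:118937827-118937845, plus strand: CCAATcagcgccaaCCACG
Creld2, chr15:88819520-88819538, minus strand: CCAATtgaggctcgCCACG
Syvn1, chr19:6046532-6046550, plus strand: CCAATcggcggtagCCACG
Herpud1 (ERSE-II), chr8:94386377-94386387, plus strand: ATTGGgCCACG

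Of 10 members with either element, these 7 were tested. None was called with limma, and their log2 folds ran from -0.18 to 0.84 with a median of 0.15. The 21 tested members without either element had 1 call and a median of 0.18. A letter match is a description of the sequence and not of binding. Hspa5 and Canx also hold ERSE and Dnajb11 holds ERSE-II, but these 3 genes have no tested probe.

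The translocon and its partners held the 1 member that was called. Of 9 genes, 7 were tested, 1 was higher and 0 were lower. That is 14.3% called, near the 15.6% of all genes, and the median log2 fold was 0.06. Sec62, a channel partner for short proteins that enter after translation, and Spcs2, a signal peptidase subunit, were detected on 0 arrays and were not tested.

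Sec61b, the beta subunit of the Sec61 channel, read 7.42, 7.28, 7.88 and 7.73 on LN replicates 1 to 4 and 6.78, 6.74, 6.54 and 7.01 on spleen replicates 1 to 4. All LN arrays lay above all spleen arrays, with a gap between LN replicate 2 and spleen replicate 4. The means were 7.58 ± 0.28 and 6.77 ± 0.19 (SD, n = 4), which is 1.76-fold higher in LN (log2 fold 0.81 ± 0.22, limma 95% interval 0.34 to 1.29, adjusted p 0.0285). The second probe of Sec61b had a log2 fold of 0.51 and was not called (limma over all passing probes, adjusted p 0.232), in a fit that called 12.4% of 14726 probes. On that probe the groups overlapped: spleen replicate 4 (6.47) lay above LN replicates 3 (6.45) and 4 (6.24).

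The Sec61b call was close to the threshold. It was lost when LN replicate 1, 3 or 4 or spleen replicate 1, 2 or 3 was left out, with log2 folds of 0.71 to 0.86 and adjusted limma p-values of 0.0576 to 0.0901. Without spleen replicate 4 the log2 fold was 0.90 with an adjusted p of 0.00859. Within slide 1 the log2 fold was 0.61 (limma, adjusted p 0.0780) and within slide 2 it was 0.99 (adjusted p 0.232).

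The other channel subunits did not share a call. Sec61g, the gamma subunit, read 12.36, 12.53, 12.15 and 12.26 in LN and 12.32, 12.49, 12.00 and 11.34 in spleen, so that the groups overlapped apart from the low spleen replicates 3 and 4. Its log2 fold was 0.29 ± 0.24 (limma, adjusted p 0.507). Sec61a1, the pore-forming alpha subunit, had a log2 fold of 0.06 (adjusted p 0.951). Without spleen replicate 4 the log2 fold was 0.51 for Sec61a1 (limma, adjusted p 0.0549) and 0.06 for Sec61g (adjusted p 0.815). The second passing probe of Sec61a1 had a log2 fold of 0.41 and was not called (limma over all passing probes, adjusted p 0.306). Whether the folds of the 3 subunits differ from each other was not tested.

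Ssr1, the alpha subunit of the translocon-associated protein complex, read 7.45, 7.55, 7.05 and 7.29 in LN and 7.68, 7.66, 7.01 and 7.93 in spleen, with overlapping groups and a log2 fold of -0.24 (limma, adjusted p 0.614). Sec63, the membrane J-domain partner of BiP, read 9.84, 9.86, 9.64 and 10.01 in LN and 9.54, 9.97, 9.51 and 9.81 in spleen. These ranges overlapped as well, and its log2 fold was 0.13 ± 0.18 (limma, adjusted p 0.728). Ssr2 and Ssr3, further subunits of the complex, had log2 folds of -0.06 and -0.07. For Ssr3 the 95% interval was among the narrow ones, from -0.40 to 0.27.

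**Figure D2:**
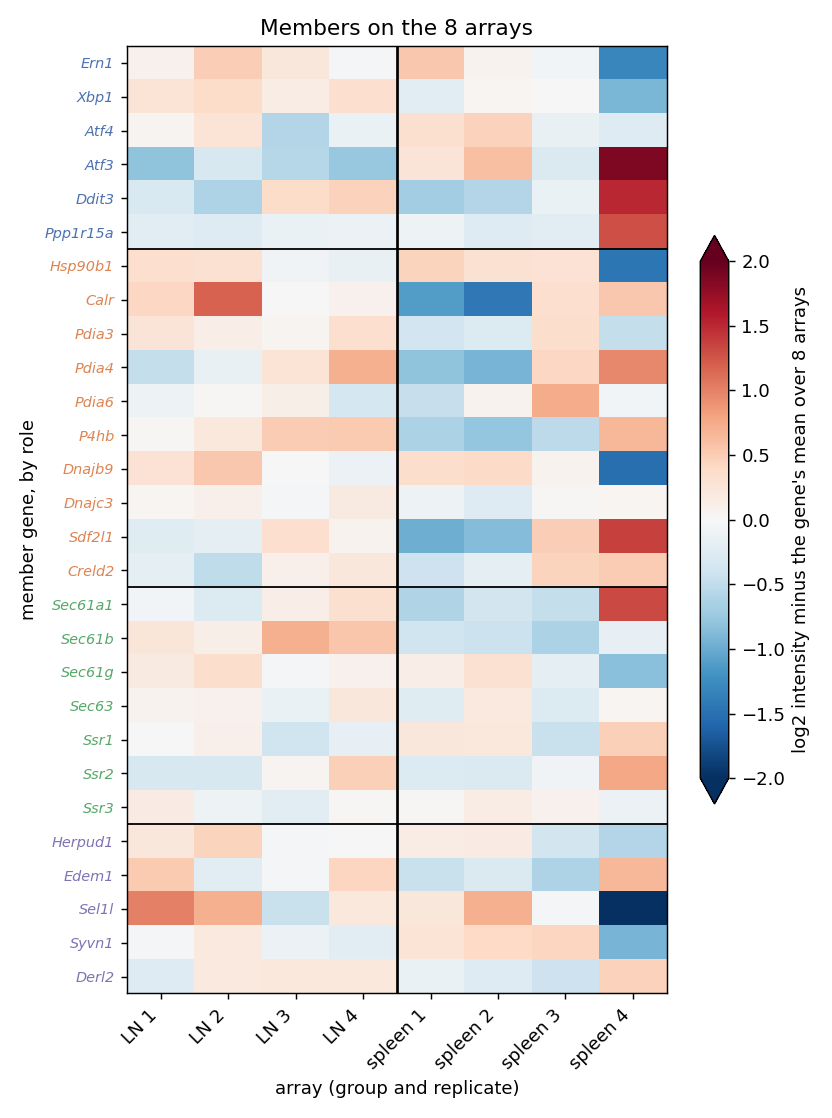
Log2 intensity of the 28 tested members (y axis, label colours give the role as in the plot of folds) on each of the 8 arrays (x axis), shown as the difference from the gene's own mean. The strongest reds and blues lie in the spleen replicate 4 column, with Atf3 and Ddit3 high and Sel1l low, while Sec61b is higher on each LN array than on each spleen array.

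Of 6 ERAD genes, 5 were tested and 0 were called in either direction with limma, with 0 at an unadjusted p under 0.05. Their median log2 fold was 0.33 and 4 of the 5 folds were above 0. Derl1, a channel component, was detected on 0 arrays.

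Sel1l, the adaptor of the HRD1 ubiquitin ligase, had a log2 fold of 0.74 ± 0.60 (limma, adjusted p 0.497). It read 11.68, 11.38, 10.24 and 10.89 in LN and 10.90, 11.40, 10.64 and 8.30 in spleen, so that the fold came mainly from the low spleen replicate 4, and it was 0.07 without that array. On spleen replicate 4, 3 of its 4 passing probes lay below the other spleen arrays, with differences down to -2.68, and 1 lay 1.92 above them. It was the 1 member of 12 with several passing probes whose probes had folds of both signs.

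Edem1, a lectin that sends misfolded glycoproteins to degradation, read 8.07, 7.33, 7.50 and 7.98 in LN and 7.09, 7.25, 6.93 and 8.20 in spleen. Spleen replicates 1 to 3 lay below the LN arrays and spleen replicate 4 above them, and the log2 fold was 0.35 ± 0.31 (limma, adjusted p 0.544). Herpud1, a UPR target that organises the ligase complex, read 13.99, 14.23, 13.76 and 13.77 in LN and 13.92, 13.93, 13.40 and 13.19 in spleen. Its groups overlapped, with the slide 2 arrays lower in both, and the log2 fold was 0.33 ± 0.20 (limma, adjusted p 0.353). Syvn1, the HRD1 ligase, and Derl2, a channel component, had log2 folds of -0.09 and 0.18.

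Spleen replicate 4 stood apart in these genes. It lay outside the range of the other 3 spleen arrays for 26 of the 28 members (92.9%), 15 above and 11 below, against 81.8% of all genes. Above the mean of the other spleen arrays lay Ddit3 by 1.97 log2 units, Sdf2l1 by 1.82, Sec61a1 by 1.81 and Atf3 by 1.68. On the low side, Hsp90b1 differed by -1.80, Dnajb9 by -1.78, Ern1 by -1.49 and Syvn1 by -1.29. Stress factors, chaperones and ERAD genes thus lay on either side. Atf4 and Sel1l each had 1 probe above and another below the other spleen arrays on this array, so the direction there depended on the probe.

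Without spleen replicate 4, limma called 3 of the 28 members, or 10.7%, against 24.1% of all genes. They were Sec61b and P4hb, higher in LN, and Atf3, lower. Within slide 1 there were 5, or 17.9%, against 21.9% of all genes: Calr, P4hb, Pdia3 and Sdf2l1 higher and Atf3 lower. Within slide 2, which holds spleen replicate 4, there were 0 (and 4.51% of all genes). With these subsets the share of members called was below that of all genes, as with all 8 arrays.

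The folds on the slides had opposite signs for 9 of 28 members, or 32.1%, against 28.2% of all genes. The interaction of group and slide was called in 0 of 28 members and in 0% of all genes. At an unadjusted p under 0.05 it had 2 members, Calr and Sdf2l1 (7.14%), against 2.36% of all genes.

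**Figure D3:**
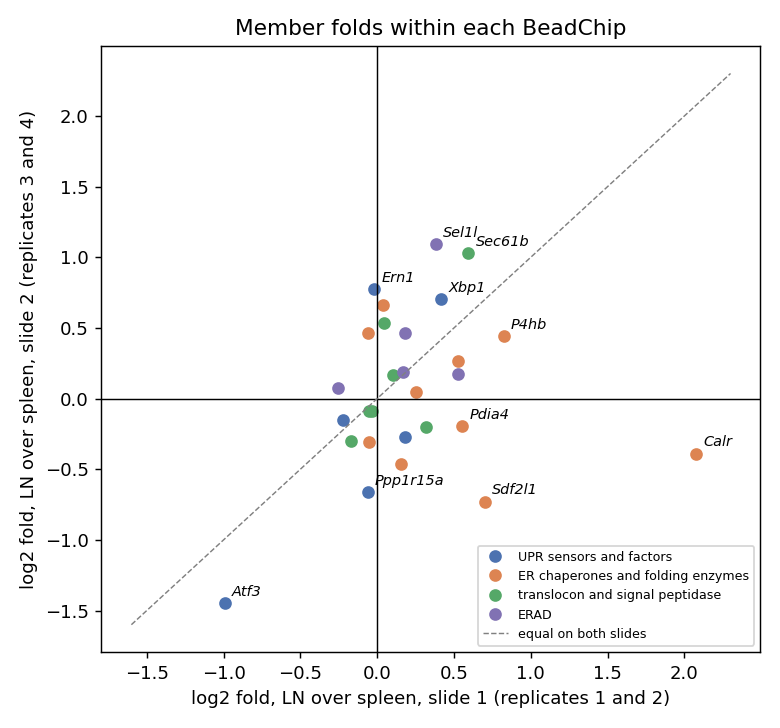
Mean log2 fold of LN over spleen on slide 1 (x axis, replicates 1 and 2) and slide 2 (y axis, replicates 3 and 4) for the 28 tested members, coloured by role, with a dashed line of equal folds. Atf3 lies below 0 and Xbp1 and Sec61b above 0 on both slides, while Calr (2.08 and -0.39) and Sdf2l1 (0.70 and -0.73) lie on opposite sides.

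A wider set of 172 genes of the same pathways was read beside the members, in 8 lists that do not overlap with them. Of these, 127 were tested, 10 were higher in LN and 8 lower with limma, or 14.2% against 15.6% of all genes, and their median log2 fold was 0.14. By list the share called ran from 0% to 13.3%, against 15.6% of all genes, apart from 50% in the list of ATF4 programme genes. The named genes below are those with the largest folds among the called ones of each list.

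The lists closest to the members gave 0 to 2 calls each. Of 8 tested subunits of the oligosaccharyltransferase, which adds glycans to proteins entering the ER, 0 were called and 0 had an unadjusted p under 0.05; the largest log2 folds were 0.41 for Stt3b (limma, adjusted p 0.267) and 0.32 for Ddost (adjusted p 0.422). Among 15 tested genes of signal recognition and translocation, 1 rose, Sec11c, a catalytic subunit of the signal peptidase (1.21 ± 0.35, limma, adjusted p 0.0411). It read 9.20 to 9.85 in LN and 7.28 to 9.02 in spleen, and the call was lost without any 1 of the 4 LN arrays or spleen replicate 3 (adjusted p up to 0.115).

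Of 20 tested folding enzymes outside the members, 2 were higher and 0 lower. Ero1b, the oxidase that recharges disulfide isomerases and the relative of the undetected Ero1a, read 10.08, 9.92, 10.42 and 10.19 in LN and 8.82, 8.96, 8.83 and 8.44 in spleen. Its groups were well apart, 2.62-fold higher in LN (log2 fold 1.39 ± 0.19, limma, adjusted p 0.000796), and it was called under all 23 alternatives tried. Dnajc1, an ER membrane J-domain protein, was 1.42 ± 0.29 higher (limma, adjusted p 0.00796).

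Among 16 other ERAD genes tested, Vcp, the ATPase that pulls substrates from the ER membrane, was the 1 call, 0.80 ± 0.13 higher in LN (limma, adjusted p 0.002). It read 13.13 to 13.31 in LN and 12.32 to 12.51 in spleen. Of 21 tested genes of vesicle traffic between ER and Golgi, the COPII coat genes Sec24d and Sec24b were called in opposite directions. Sec24d was detected on 4 LN arrays and on 0 spleen arrays. Its call was for a log2 fold of 1.63 (limma, adjusted p 0.000631), with the spleen values at background. With the spleen level set at the detection limit, Sec24d was at least 1.85-fold higher in LN, a bound that was not itself tested. It passed the detection filter only through the LN arrays, so its call is no independent support for a difference. Sec24b was lower by 0.93 ± 0.17 log2 units, a log2 fold of -0.93 (limma, adjusted p 0.00362).

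The list with a high share of calls was that of ATF4 programme genes, which serve amino acid supply, redox balance and the stress response. Of 18 tested, 4 were higher and 5 lower, or 50% against 15.6% of all genes. The median log2 fold was 0.08, so the list moved in both directions. As the list was chosen with earlier results of these data known, its share of calls is no independent support for a difference. Higher in LN were Slc7a11, the cystine importer (1.70 ± 0.26, limma, adjusted p 0.00133), Sesn2, a stress-induced regulator of mTORC1 (1.69 ± 0.40, adjusted p 0.0155), and Mthfd2, a mitochondrial folate enzyme (0.78 ± 0.21, adjusted p 0.0285). Lower were Nupr1, a stress-induced nuclear protein (-1.95 ± 0.24, adjusted p 0.000396), Ddit4, an inhibitor of mTORC1 (-1.63 ± 0.21, adjusted p 0.000529), and Cebpb, a bZIP factor (-1.24 ± 0.18, adjusted p 0.00121).

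The arrays behind these values differed in how clearly they parted. Slc7a11 read 10.80 to 11.19 in LN and 8.48 to 9.69 in spleen, and Nupr1 read 9.41 to 10.42 in LN and 11.78 to 12.08 in spleen. The list's count fell to between 4 and 5 when LN replicate 1, 3 or 4 or spleen replicate 2 was left out. It was 4 when arrays were scaled by their median and 3 within slide 2. The Sesn2 call was lost without LN replicate 3 (limma, adjusted p 0.0535), and that of Mthfd2 without any 1 LN array or spleen replicate 2 (adjusted p up to 0.0898).

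Of 15 tested UPR regulators and other sensors, 0 were higher and 2 lower. Eif2ak2, the double-stranded RNA sensor PKR, was lower by a log2 fold of -0.88 ± 0.19 (limma, adjusted p 0.0108). Tmbim6, an ER membrane protein that restrains IRE1, was lower by -0.42 ± 0.12 (adjusted p 0.0441), a call that was lost without any 1 of the arrays other than spleen replicate 4 (adjusted p up to 0.134). Of 14 tested genes of the cytosolic heat shock response, 1 was called: Bag3, a cochaperone of HSP70, was 1.29 ± 0.18 higher in LN (limma, adjusted p 0.000829), with 10.14 to 10.55 in LN and 8.92 to 9.34 in spleen.

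**Figure D4:**
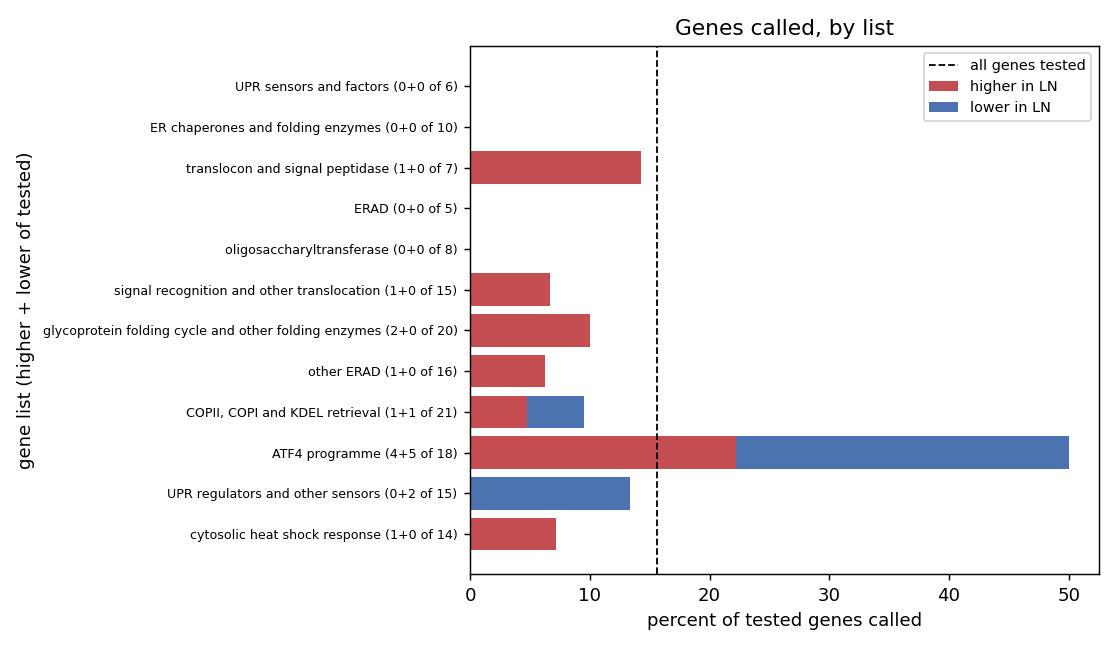
Percent of tested genes called with limma at an adjusted p under 0.05 (x axis) in the 4 roles of the members and in 8 other lists (y axis, with higher and lower calls and the number tested), red for higher in LN and blue for lower. The dashed line is the share of all genes, 15.6%; the ATF4 programme reaches 50% and the translocon 14.3%, while the other 3 roles of the members have 0 calls.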

How the data were processed

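RNA of 8 samples was isolated with TRIzol and hybridised as biotinylated cRNA, per the labels' protocols. Per the file headers, the deposited non-normalized table gives for each of 45281 probes and each array a linear bead intensity with its detection p-value. A second deposited table holds log2 values processed by the authors, with a median of 6.28 and a correlation with log2 intensity of at least 0.9989 per array, from which scale and direction were read. The submitters' processing notes list Partek alone, with no version; scanner software and background steps are not given here. 1 blank line was left out, and 0 per-sample columns were unused. The gene table gave 1 symbol for 34885 probes, several for 18 and none for 10378. The highest correlation between 2 arrays was 0.992, so no array was taken as a repeat.

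Background was estimated from negative controls inferred through detection p, followed by quantile normalization and log2 with an offset of 16 (neqc, limma 3.58.1, R 4.3.3; jsonlite 2.0.0). Probes with a detection p under 0.01 on at least 4 of 8 arrays were kept without regard to group, 14726 in all, and the brightest stood for its gene. Group means were tested with lmFit and eBayes (intensity trend, two-sided), with Benjamini-Hochberg adjustment over 8252 genes. All adjusted p-values of genes are limma's. A second fit used each passing probe. Levels of different probes are not compared. For a gene detected on all arrays of 1 group and on none of the other, a lower bound on the fold is given, with the dim group set, per array, at the array's lowest detected signal or at the probe's own signal where that was higher. The number of arrays limits the precision.

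Group and replicate came from titles and source names, and the slide from the BeadChip in the description. Deviations from the group means correlated at 0.31, 0.57, 0.27 and 0.54 between LN and spleen samples of replicates 1 to 4, and the series text says that both organs came from the same mice, so the replicate number was taken as pairing. Samples of different number on the same slide correlated too, at 0.58 (LN 2 with spleen 1), 0.41 (LN 1 with spleen 2), 0.42 (LN 3 with spleen 4) and -0.18 (LN 4 with spleen 3), so pair and slide are not fully separate. The main fit did not use the pairing. For members, the blocked value stands beside a result where it changed a call. In the other lists, the block raised calls from 9 to 11 for the ATF4 programme and 2 to 3 for vesicle traffic. Calls rose from 2 to 3 for UPR regulators and other sensors and from 1 to 2 for the cytosolic heat shock response. The remaining lists kept their counts.

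Members and lists were chosen with earlier results of these data known. Values on every array are given for called members and for up to 3 others per role with the largest folds. Of each further list up to 3 called genes per direction are named, or 2 where none was called. Alternatives were other normalizations, offsets, filters and probe rules, blocks, array weights, each slide alone and each array left out. The interaction with slide, and the replicate block without the fourth pair, were added after the data were seen. Promoter windows and coordinates are those of RefSeq, and no match was drawn from other genome sequence. Plots and motif searches used Python 3.11.15, pandas 2.3.3 and matplotlib 3.10.9.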

Additional observations from a re-analysis of the deposited data

Results flagged for a closer look

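With 4 arrays per group, 56 sets of 4 values (28 members in each group) were examined with Dixon's test at the 95% level for an array far from the other 3, which chance gives in about 1 of 20 sets. It was found in 7, and in 6 of them the array was spleen replicate 4. On that array Ppp1r15a (14.00), P4hb (12.25) and Sec61a1 (10.78) were far above the other spleen arrays in log2 intensity, and Hsp90b1 (9.67), Dnajb9 (7.17) and Syvn1 (9.96) were far below them. Spleen replicate 4 also had the lowest mean intensity of the 8 arrays, 239, and the lowest mean correlation with its group, 0.895. The 7 sets included 1 from LN, in which Derl2 was low on LN replicate 1 (7.49). The part of array quality in these values was not tested.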

How the results depend on the processing

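The count of members called higher in LN, 1 with all arrays, was 0 with no filter on dim probes, 4 within slide 1, 0 within slide 2, 6 with array weights and 3 with the replicate block without the fourth pair, and 0 to 2 with 1 array left out. The count called lower, 0, was 1 with the replicate block, within slide 1, with array weights and with the block without the fourth pair, and 0 to 1 with 1 array left out. Called probes of the members, 1, became 0 with no filter, 2 with the replicate block, 9 with array weights, 5 within slide 1 and 0 within slide 2, and 0 to 3 with 1 array left out. Calls among all genes, 1285, became 372 within slide 2, 2698 with array weights, 2612 with the block without the fourth pair, and 890 to 1986 with 1 array left out. Calls made up 15.6% of all genes tested with all arrays, 5.66% with no filter and 21.1% with the replicate block. Within slide 1 they were 21.9%, within slide 2 4.51% and with array weights 32.7%. The block without the fourth pair had 31.7%, and leaving out 1 array gave 10.8% to 24.1%. Of the 28 members, 7 were called with array weights. The share of all probes under these settings is not given, so the probe counts lack that comparison. The replicate block changed no other call of a member than that of Atf3. In each count the cause was not tested.

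When arrays were scaled by their median, the middle log2 fold over the 8252 genes went from 0.03 to 0.24 and the split from 659 higher and 626 lower to 625 and 315. Against that shift, members with folds near 0 changed sign: Ddit3 to 0.21, Sdf2l1 to 0.29, Pdia6 to 0.0357, Creld2 to 0.0715, Ssr1 to 0.0112, Ssr2 to 0.17, Ssr3 to 0.11 and Syvn1 to 0.11. Within slide 1 the sign turned for Ern1 (-0.0204), Ddit3 (0.19), Hsp90b1 (-0.06), Pdia6 (0.16) and Sdf2l1 (0.73), and within slide 2 for Calr (-0.37), Pdia4 (-0.18), Sec61a1 (-0.21) and Syvn1 (0.0897). With array weights it turned for Ern1 (-0.11), Ddit3 (0.52), Hsp90b1 (-0.23), Pdia6 (0.0301), Dnajb9 (-0.12), Sdf2l1 (0.69), Creld2 (0.13) and Ssr2 (0.19). With the block without the fourth pair it turned for Ddit3 (0.29), Hsp90b1 (-0.17), Sdf2l1 (0.42) and Ssr2 (0.0157).

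With 1 array left out, log2 folds crossed 0 for Ddit3 (-0.28 to 0.45), Ppp1r15a (-0.51 to 0.0078), Hsp90b1 (-0.25 to 0.38), Pdia4 (-0.10 to 0.53), Pdia6 (-0.33 to 0.0697), Dnajb9 (-0.10 to 0.53), Sdf2l1 (-0.34 to 0.45), Sec61a1 (-0.13 to 0.51), Ssr2 (-0.23 to 0.18) and Syvn1 (-0.42 to 0.0343). None of these members was called with all 8 arrays. Sec61b stayed above 0 under all 23 alternatives (log2 fold 0.54 to 1.05, limma adjusted p 0.00264 to 0.232) and was called in 14. Atf3 stayed below 0 in all 23 (-1.53 to -0.76, adjusted p 0.00223 to 0.313) and was called in 6. Among the other pathway genes, Ero1b, Slc7a11 and Nupr1 were called in all 23. Median scaling ended the calls of Sec11c, Vcp, Sec24b, Mthfd2, Cebpb, Eif2ak2 and Tmbim6 (limma adjusted p 0.0519 to 0.757). Genes at background on this array, such as Hspa5, are limited by signal over background.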
